A study of Drosophila melanogaster with 16 samples.

Results

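The genes described here encode the proteins of the cytosolic ribosome. They were taken as every gene whose symbol starts with RpL, RpS or RpLP followed by a digit, which gave 88 of the 17559 genes measured. By symbol and level they fall into 65 single-copy genes, 9 main copies of 9 duplicated families and 11 further copies, of which 10 belong to those families and RpS10a to that of RpS10b. The other 3 carry the ending -like but are the fly orthologues of yeast factors that help to build the large subunit, RpL24-like (Rlp24), RpL7-like (Rlp7) and RpLP0-like (Mrt4). The 65 single-copy genes and 9 main copies, 74 in all, are called the core genes below. The genes RpS10b, RpL27A, RpL31 and RpL19 are not analysed here, and sta and Rack1 encode ribosomal proteins under names that the rule does not reach.

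RNA had been sequenced from isolated trachea, the branched airway, of Canton S larvae, a wild-type strain of Drosophila melanogaster. Male and female larvae had been kept apart and exposed to air or, at 4 puffs per min over 60 min, to mainstream smoke from 3R4F cigarettes made for research. This gave 4 groups of 4 libraries, female air, female smoke, male air and male smoke, with no genetic change in any of them. The sources used here do not give the age of the larvae or the number of animals per library. Nothing says that replicates came from separate animals, so the p-values refer to the spread between libraries, which may be technical. The libraries held 15036560 to 23434521 reads assigned to genes. In bulk RNA, fewer cells of a type and less RNA per cell cannot be told apart.

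Each cytosolic ribosome holds 1 copy of nearly every ribosomal protein, so cells make these proteins in near equal amounts from some of the most abundant messages they hold. In flies most of them come from a single gene, and loss of 1 copy of many of these genes gives the Minute phenotype of slow growth. Growth signals through Tor and Myc raise ribosome production, while Thor, the fly 4E-BP, restrains the start of translation. Several fly ribosomal protein genes have a second copy, and some of these copies, such as RpL22-like, RpS5b and RpS19b, are known mainly from germ cells.

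The core genes took 10.01 to 11.88% of the reads in each library, with the lowest mean in female smoke. They held 10.77, 10.99, 11.15 and 11.45% of the reads in the 4 female air libraries, a mean of 11.1% ± 0.285 (SD, n = 4), and 10.10, 10.14, 10.01 and 11.10% in the female smoke libraries, a mean of 10.3% ± 0.512. The first 3 female smoke libraries lay below all female air libraries and the 4th lay among them. Male air held 11.1% ± 0.273 and male smoke 11.1% ± 0.587, with overlapping libraries. Leaving out 1 library gave a smoke minus air difference of -1.01 to -0.63 percentage points in females and -0.30 to 0.13 in males. Once the reads of muscle, salivary gland, fat body and midgut markers were left out, the shares were 11.2% ± 0.343 and 10.4% ± 0.495 in female air and smoke, and 11.3% ± 0.283 and 11.1% ± 0.584 in male air and smoke. The share is a sum over a chosen list and was not tested.

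**Figure D1:**
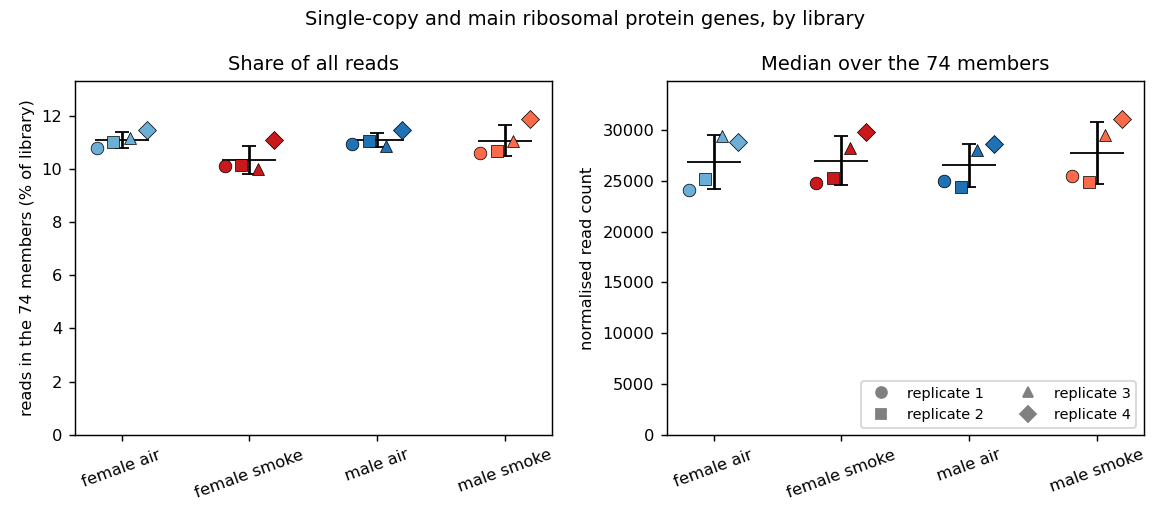
Share of each library's reads held by the 74 core ribosomal protein genes (left, percent) and the median normalised read count of these genes (right), by group; each symbol is 1 library, its shape is the replicate number, and the bars are the mean and SD of 4 libraries. Female smoke has the lowest mean share, 10.3%, while replicates 3 and 4 have higher medians than replicates 1 and 2 in every group.

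Per length, the core genes were expressed within a narrow range. Levels were computed as RPKM (reads per kb of annotated exon, scaled to library depth), for the 73 core genes with a length in the reference, all but RpS12. Their median over the 16 libraries was 1505, the quartiles lay at 1195 and 1896, and 67 of 73 lay within 2-fold of the median. All 73 were among the 200 most abundant of 17253 genes on this scale.

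RpL41, which encodes the smallest protein of the large subunit, stood highest at 7840 ± 730 RPKM (SD over 16 libraries). RpL39, another very small protein of the large subunit, followed at 2988 ± 266 and RpS18 of the small subunit at 2825 ± 356. RpL41 lay above every library of the other genes, while RpL39 (2461 to 3604 over the libraries) and RpS18 (2303 to 3322) overlapped. The lowest single-copy genes per kb were RpL38 at 624 ± 146, RpL5, which binds the 5S RNA, at 636 ± 63.7, and RpL28 at 744 ± 127. These overlapped too. Over the longest annotated transcript in place of all exons RpL28 had 1159 ± 198 and was no longer among the lowest 3. Its place was taken by RpS9 at 841 ± 56.5, while the other 2 and the 3 highest kept theirs. RpL38, RpL5, RpL41 and RpL39 have the same length by either measure, so this check could not change their levels. The low level of RpL5 rests on 3835 annotated bases of exon, the most of the core genes. In counts scaled to depth alone (CPM) RpL5 had a mean of 2440, against 632 for RpL38 and 1028 for RpL28. Whether all of its annotated bases are transcribed here was not tested. A short gene's level per kb depends strongly on its annotated ends, and RpL41 spans 320 bases of exon. The acidic stalk proteins, which recruit translation factors, had 1893 ± 320 RPKM for RpLP0, 2114 ± 129 for RpLP1 and 2411 ± 170 for RpLP2. RpS27A and RpL40, both made as fusions with ubiquitin, lay close together at 2208 ± 432 and 2156 ± 433.

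In female trachea, smoke left the core genes close to their level in air. Of 80 members that passed the filter on low values (at least 10 normalised reads in 4 or more of the sex's 8 libraries), 0 were called higher and 1, RpS15Ab, was called lower at an adjusted p under 0.05 (limma, Benjamini-Hochberg over 8877 genes). Among all genes tested in females 18% were called, 10.9% higher and 7.09% lower. No core gene was called, none had an unadjusted p under 0.05, and edgeR called 0 of them and DESeq2 1, RpL41. The core genes' log2 changes, taken on log2(value + 1) as smoke over air, had a median of 0.0029 and ran from -0.16 to 0.13, and 39 of 74 were above 0. Over all genes tested the median was -0.02, and 4370 of 8877 had a change of more than 0.25 in size, against 0 of 74 core genes. The 8877 genes were not matched to the core genes for level and include many with low counts. With libraries rescaled to the same total, the median of all genes moved to -0.13 and that of the core genes to -0.11.

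RpL41 was the core gene with the smallest p in females. Its normalised read counts were 49502, 49697, 49851 and 50927 in air and 44907, 46135, 43092 and 45348 in smoke. Every smoke library lay below every air library, which held for 2 of the 80 members, RpL41 and RpS15Ab, while 0 members had smoke above air in this way. Of all genes tested 24.5% did not overlap, 13.7% with smoke higher and 10.8% with smoke lower. The log2 change was -0.16 ± 0.08 (SE) and did not pass the test (limma adjusted p = 0.215). With a term for the replicate sets described below, the SE was 0.05 and the change again did not pass (limma adjusted p = 0.0555). DESeq2 called RpL41 lower and edgeR did not. In the authors' deposited table its log2 change was -0.16 with an FDR of 0.00148. In males RpL41 had a log2 change of 0.04 ± 0.09.

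In females the change was related to the length of the gene. Over 73 core genes, across genes that share the same libraries, Spearman's rho between the female log2 change and exon length was 0.59 and Pearson's r with log2 length was 0.61, given as a description. The 10 shortest core genes, of 288 to 612 bases, had a median log2 change of -0.05 with 8 below 0, and the 10 longest, of 1321 to 3835 bases, had a median of 0.08 with 1 below 0. In males rho was 0.32 and r was 0.20, and the 10 shortest and 10 longest had medians of 0.06 and 0.08. A relation to length was not confined to the smoke change. The mean difference between the replicate sets described below, which are balanced over smoke and sex, had a rho of 0.37 and an r of 0.26. Values over all genes are not given here.

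In male trachea the core genes also lay close to their level in air. Of the 80 members tested 1, RpL24-like, was called higher and 0 were called lower (limma, over 8705 genes), while 13.5% of all genes tested were called, 8.89% higher and 4.64% lower. No core gene was called or had an unadjusted p under 0.05, and edgeR called 0 and DESeq2 1, RpS9. With replicate number as a block in the limma fit, the core genes RpL39 and RpS9 were called higher, among 2816 of 8705 genes called. The log2 changes of the 74 core genes ran from 0.01 to 0.15 with a median of 0.066, all above 0, while the median over all genes was -0.01. With libraries rescaled to the same total the core median was -0.01 and that of all genes -0.08.

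RpS9, a protein of the small subunit, was the core gene with the smallest p in males. It had normalised read counts of 14119, 14024, 13343 and 14394 in male air and 15199, 15245, 14693 and 16101 in male smoke, with no overlap. Its log2 change of 0.13 ± 0.07 did not pass the test (limma adjusted p = 0.211), and in females it was 0.03 ± 0.07. Groups did not overlap for 5 of 80 members in males, RpS9, RpL8, RpS28b and RpL24-like with smoke higher and RpS15Ab with smoke lower, against 22.5% of all genes tested, 13.4% with smoke higher and 9.11% with smoke lower.

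In the main limma fit no ribosomal protein gene was called for a difference between the sexes in its response. Of 80 members 0 were called (limma over 8606 genes, of which 2.17% were called), 0 had an unadjusted p under 0.05, and edgeR and DESeq2 each called 0. With replicate number as a block in the limma fit 1, RpLP0-like, was called lower, among 669 of 8606 genes called. The smallest p-values were those of RpL41, with a female minus male log2 change of -0.20 ± 0.09 (limma adjusted p = 0.372), and of RpL21, a protein of the large subunit, with -0.19 ± 0.09 (limma adjusted p = 0.398). RpL21 had log2 changes of -0.10 ± 0.08 in females and 0.08 ± 0.08 in males. The 95% confidence intervals of the difference were -0.40 to 0.01 for RpL41 and -0.39 to 0.02 for RpL21. The interval was wider for RpLP0-like, with a difference of -0.43 ± 0.23 and an interval of -0.92 to 0.06 (limma adjusted p = 0.437). In air, the 12 core genes on the X chromosome had a median male over female log2 ratio of CPM (counts scaled to library depth) of 0.04 and the 61 on other arms one of -0.01, given as a description.

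**Figure D2:**
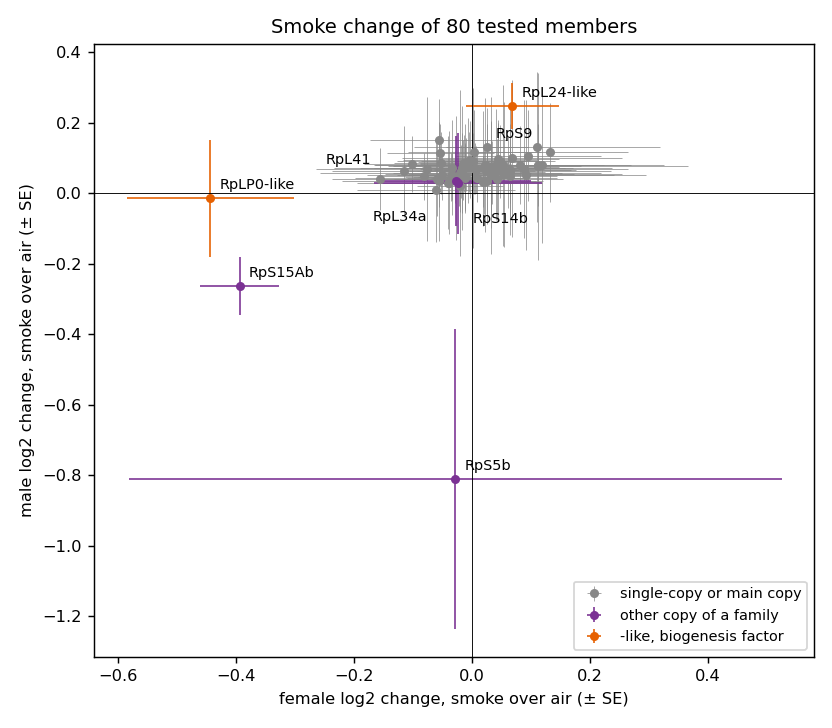
Log2 change of smoke over air in females (x axis) and males (y axis) for the 80 members tested, each with ± SE; grey points are the 74 core genes, purple points other copies of duplicated families and orange points the -like biogenesis factors. The core genes lie between -0.16 and 0.13 in females and between 0.01 and 0.15 in males, and RpS15Ab lies below 0 in both.

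Members with fixed interest gave the same picture. RpS6, the small-subunit protein phosphorylated by S6 kinase, had log2 changes of 0.06 ± 0.17 in females and 0.06 ± 0.18 in males. RpS3 had -0.01 ± 0.13 and 0.07 ± 0.12. RpS12, which in flies takes part in the competition between cells that differ in ribosomal protein genes, had -0.01 ± 0.10 and 0.04 ± 0.10. RpS27A had -0.06 ± 0.16 and 0.03 ± 0.17, and RpL40 -0.02 ± 0.24 and 0.06 ± 0.24. The stalk proteins had log2 changes of 0.11 ± 0.21 and 0.13 ± 0.21 for RpLP0, 0.02 ± 0.10 and 0.03 ± 0.09 for RpLP1, and -0.05 ± 0.08 and 0.05 ± 0.07 for RpLP2, females first. Of the ribosomal proteins outside the symbol rule, sta, the fly RpSA, had 0.06 ± 0.21 and 0.14 ± 0.23, and Rack1, a scaffold on the small subunit, 0.06 ± 0.17 and 0.09 ± 0.18.

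In the median over the core genes, the spread within groups came mostly from a difference between replicates 1 and 2 and replicates 3 and 4. That does not hold for each gene, and for RpL41 in females the sets lay close together. The labels do not say what the sets are, but their columns are named in 2 styles, and their depths were 19367755 to 23434521 and 15036560 to 19431772 reads. RpL4, a large-subunit protein, had normalised read counts of 31504 and 33298 in female air replicates 1 and 2 and 50223 and 51547 in replicates 3 and 4. In female smoke the counts were 34590 and 33554, then 53587 and 59581. In male air they were 32919 and 31785, then 52326 and 54733, and in male smoke 35612 and 32693, then 57231 and 55720. RpL4 was higher in replicates 3 and 4 in every group, with no overlap and a mean log2 difference of 0.71.

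RpL38, also of the large subunit, differed the other way. Its normalised read counts were 14332 and 14390, then 10235 and 10219 in female air, and 14008 and 13627, then 9422 and 9689 in female smoke. In males they were 12389 and 15104, then 9216 and 8980 in air, and 13378 and 14386, then 9813 and 9925 in smoke. Its mean log2 difference was -0.53. The range over the core genes ran from RpL38 to RpL4, with RpS3A at -0.45, RpS27A at -0.44, RpS7 at 0.58, RpL18 at 0.60, RpL24 at 0.63 and RpL40 at 0.65.

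The difference had the same sign in all 4 groups for 63 of 74 core genes, 43 higher and 20 lower in replicates 3 and 4. That is 85.1% of the core genes, against 53.5% of the 8606 genes kept in both sexes. The sets did not overlap in any of the 4 groups for 54 core genes (73.0%), against 18.4% of all genes. A core gene's 4 differences lay within a median range of 0.08 on the log2 scale, against 0.28 for all genes. Both subunits were split, with 26 of 41 large-subunit genes higher and 9 lower in all groups, and 15 of 30 small-subunit genes higher and 11 lower. Both sets hold 2 libraries of every group, so the sets are balanced over smoke and sex.

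**Figure D3:**
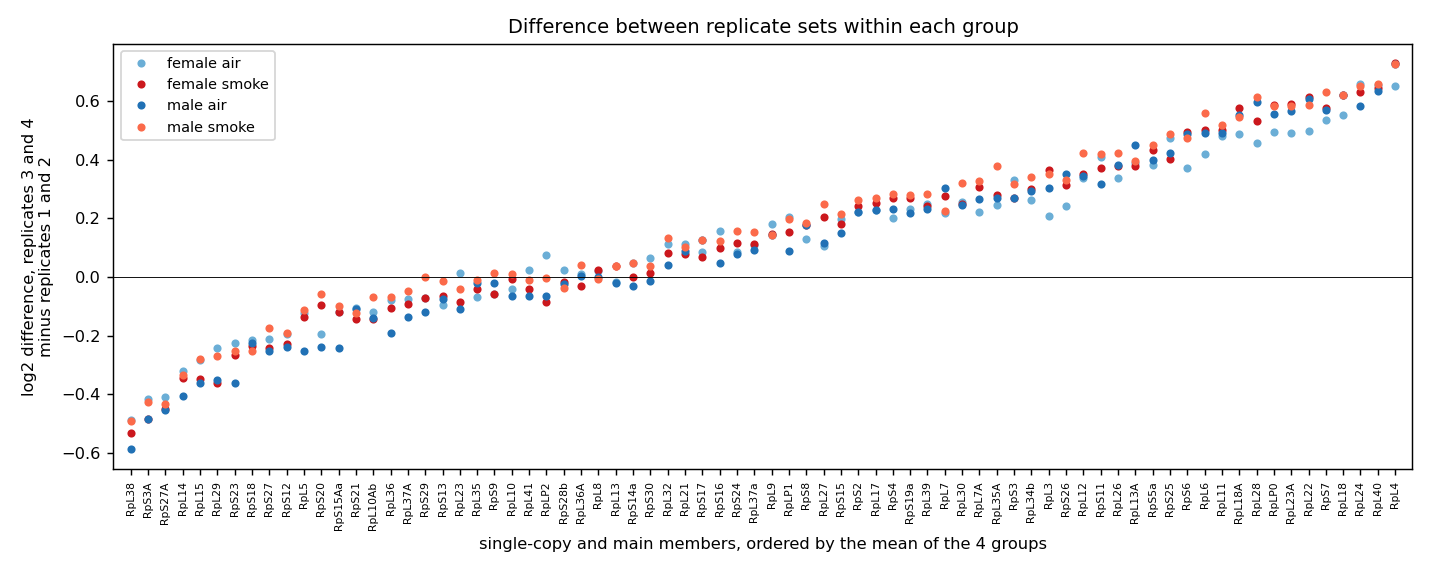
Log2 difference between replicates 3 and 4 and replicates 1 and 2 for each of the 74 core genes, ordered by the mean over the groups; each point is 1 group. The 4 points of a gene lie close together, from about RpL38 at a mean of -0.53 to RpL4 at 0.71.

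With the set as a term in the limma fit, the median residual SD of the core genes went from 0.148 to 0.0494 in females and from 0.150 to 0.0469 in males on the log2 scale. Over all genes it went from 0.207 to 0.155 and from 0.210 to 0.156. The median standard error of the core genes' smoke change was 0.113 without and 0.0521 with the term in females, and 0.114 and 0.0486 in males. No core gene was called with the term, against 2514 of 8877 genes tested in females and 1967 of 8705 in males. An unadjusted p under 0.05 was reached by 2 core genes in females and 3 in males, against 3670 and 3473 of all genes tested. The 95% intervals of the core genes' log2 changes, taken over all 74, then reached from -0.27 to 0.28 in females and from -0.11 to 0.29 in males, against -0.57 to 0.69 and -0.53 to 0.69 without it, the ends belonging to different genes. Within replicates 1 and 2 alone the core median was 0.01 in females and 0.04 in males, where 65 of 74 were above 0, and within replicates 3 and 4 alone it was -0.004 and 0.09.

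RpS15Ab, the minor copy of the small-subunit gene RpS15A, was the member that fell with smoke. Its normalised read counts were 676, 684, 710 and 697 in female air and 512, 523, 564 and 508 in female smoke. Every smoke library lay below every air library. The log2 change was -0.39 ± 0.07 (limma adjusted p = 0.00652), lower in 4 of 4 smoke libraries. In males the counts were 610, 613, 674 and 620 in air and 465, 530, 569 and 537 in smoke, again with no overlap, and the log2 change of -0.26 ± 0.08 did not pass the test (limma adjusted p = 0.0709). It passed with the set as a term (limma adjusted p = 0.0302), and in the authors' deposited table its FDR in males was 0.0377. The female minus male difference was -0.13 ± 0.09 (limma adjusted p = 0.603). Within replicates 1 and 2 the log2 change was -0.39 in females and -0.30 in males, and within replicates 3 and 4 it was -0.39 and -0.23, and with 2 libraries per group it was called in neither set of either sex.

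The main copy RpS15Aa had log2 changes of -0.01 ± 0.08 in females and 0.05 ± 0.09 in males. The share of the pair's reads held by RpS15Ab was 3.74% ± 0.251 in female air and 2.90% ± 0.275 in female smoke (SD, n = 4), and 3.33% ± 0.432 and 2.70% ± 0.320 in male air and smoke. The sources used here do not say how reads that match both copies were counted, so the split within a pair of similar copies is uncertain.

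Among the 11 other copies of duplicated families, 3 held nearly all the reads. The 11 copies had 184254 of 33393808 member reads (0.552%) over the 16 libraries, and RpS14b, RpL34a and RpS15Ab held 99.6% of these. The rest, RpS5b, RpS19b, RpL22-like, RpL37b, RpS10a, RpL10Aa, RpS28a and RpS28-like, were low or absent.

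RpS14b and RpS14a, a pair on the X chromosome that encodes the same small-subunit protein, were the most even pair. Over 16 libraries RpS14b had 653 ± 71.4 and RpS14a 855 ± 51.3 RPKM, a ratio of main to other copy of 1.33. RpS14b was higher in replicates 3 and 4 of every group, for example 6214, 6655, 8609 and 8119 normalised reads in female air, while RpS14a had 14205, 14163, 14809 and 14501. RpL34a of the large subunit had 292 ± 50.8 and RpL34b 656 ± 59.3 RPKM, a ratio of 2.18. Here the copies differed in opposite ways between the sets: in female air RpL34a had 3551, 3597, 2947 and 2823 normalised reads and RpL34b 10089, 10125, 12156 and 12120. None of these 4 genes was called for smoke, with log2 changes of -0.02 ± 0.14 and 0.03 ± 0.14 for RpS14b and -0.03 ± 0.13 and 0.03 ± 0.13 for RpL34a in females and males.

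The other copies lay far below their partners per kb. RpS15Ab was 23.7 times below RpS15Aa, RpS5b 842 times below RpS5a, RpS19b 1698 times below RpS19a and RpL22-like 3082 times below RpL22. RpL37b, with 15 reads in all libraries together, was 6152 times below RpL37a. RpL10Aa had 8 reads in all, each of them in male air, a ratio of 52804. RpS28a had 1 read, a ratio of 114729 with a 95% counting interval of 20592 to 4531567, and RpS28-like had 0 reads, which places it at least 45917-fold lower than RpS28b, taking 3 reads over all libraries as the floor. RpS10a had 18 reads. Intervals and floors cover counting error only. RpS28-like overlaps an exon of another gene on its own strand. The sources used here do not say how shared reads were counted, so its floor may not hold.

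**Figure D4:**
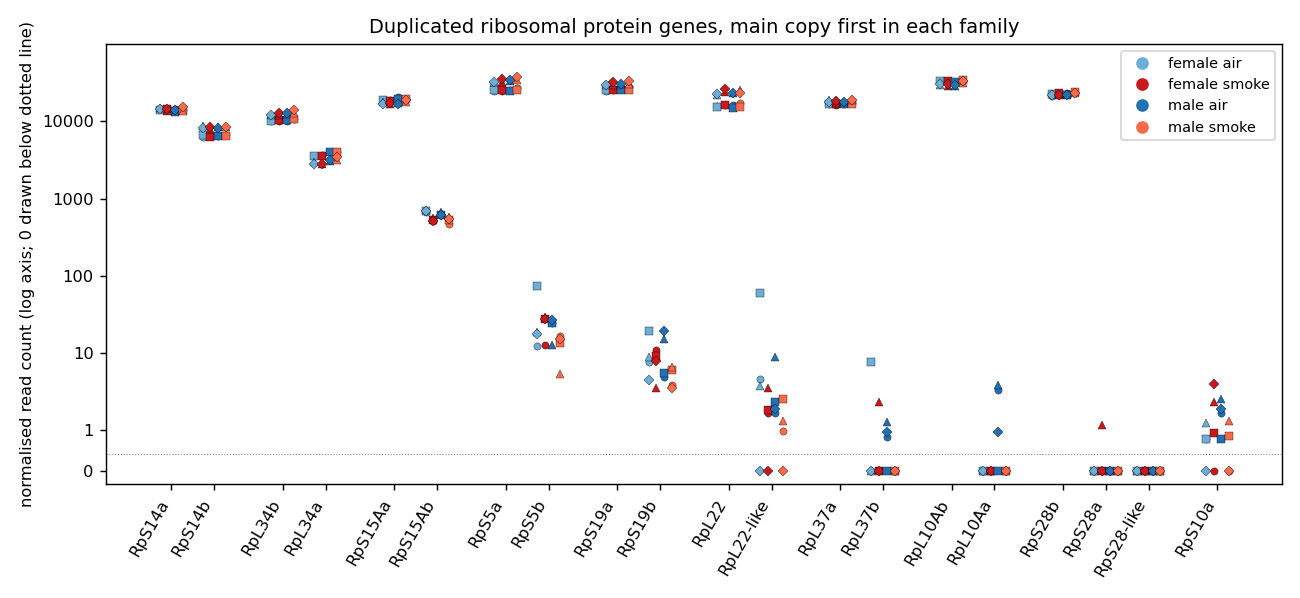
Normalised read counts (log axis, with 0 drawn below the dotted line) of the duplicated ribosomal protein genes, the main copy first in each family; each symbol is 1 library, coloured by group, with the replicate number as the shape (circle 1, square 2, triangle 3, diamond 4). RpS14b, RpL34a and RpS15Ab stand well above 0 in every library, and the highest points of RpS5b and RpL22-like are replicate 2 of female air.

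Replicate 2 of female air stood apart in the low copies. RpL22-like had 59.8 normalised reads there and 4.64, 3.78 and 0 in replicates 1, 3 and 4. RpS5b had 73.6 there and 12.4, 18.9 and 17.7 in the others, and RpS19b had 19.2 there and 7.73, 8.82 and 4.42. The same library was the highest of female air for 11 of 13 germline markers other than tud: nos had 23.0 normalised reads there and 0 to 0.773 in the others, zpg 12.3 and 0.773 to 1.26, piwi 27.6 and 1.10 to 3.78, and aub 45.2 and 6.19 to 25.2. The 13 markers together had 478 normalised reads in that library and 198 to 301 in the other 3, while tud, at 10275 to 13852, was not highest there. The part of germ cells in these copies' values was not tested.

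RpS5b was the lowest copy that passed the filter in both sexes. Its log2 changes were -0.03 ± 0.55 in females and -0.81 ± 0.42 in males, with limma adjusted p-values of 0.979 and 0.231. In male air it had 24.8, 24.1, 12.7 and 26.8 normalised reads and in male smoke 16.5, 13.6, 5.29 and 15.2, and the groups overlapped.

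Of the -like biogenesis factors, 1 was called in males and 0 in females. RpL24-like, the orthologue of a yeast factor that travels with the immature large subunit, had 2444, 2365, 2334 and 2320 normalised reads in male air and 2685, 2641, 2946 and 2981 in male smoke, with no overlap. It rose in males by 0.25 ± 0.06 on the log2 scale (limma adjusted p = 0.0412), and in females it had 0.07 ± 0.08 (limma adjusted p = 0.597). The difference between the sexes, -0.18 ± 0.09, did not pass the test (limma adjusted p = 0.427). The male call did not hold in edgeR, nor without any 1 of 7 of the 8 male libraries, replicate 2 of male smoke being the exception, and in the authors' deposited table its FDR was 0.0028.

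RpLP0-like, the orthologue of the yeast factor Mrt4 that holds the place of RpLP0 on the maturing subunit, had 1130, 1608, 1229 and 1172 normalised reads in female air and 885, 1151, 835 and 899 in female smoke. The highest smoke library reached into the air range. The log2 change of -0.44 ± 0.14 did not pass the test (limma adjusted p = 0.0649), while it did with the set as a term (limma adjusted p = 0.0412). In males the counts were 1233, 1424, 973 and 1000 in air and 1142, 1459, 982 and 1005 in smoke, a log2 change of -0.01 ± 0.17. RpL7-like was listed at 0 in every library. It overlaps an exon of another gene on its own strand, and how shared reads were counted is not given. RpL24-like, RpLP0-like and RpS9 each overlap an exon of a gene on the opposite strand, as do 23 of the 88 members, and the sources used here do not say whether the counting used strand.

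Several genes that make ribosomes fell in females. Of 31 ribosome biogenesis genes 9 fell and 1 rose in females, with a median log2 change of -0.32, against the 7.09% lower and 10.9% higher of all genes. Surf6, a nucleolar protein, fell from 996 ± 141 to 630 ± 45.5 normalised reads (log2 change -0.65 ± 0.12, limma adjusted p = 0.00837). The kinase gene rio1, which acts in maturation of the small subunit, fell by 0.46 ± 0.09 on the log2 scale (limma adjusted p = 0.0107), and CG32409 fell by 0.62 ± 0.12 (limma adjusted p = 0.0114). In males 1 of the 31 rose, the nucleostemin-family GTPase Ns2, by 0.39 ± 0.10 (limma adjusted p = 0.0363), against 8.89% of all genes, 0 fell, and the median was 0.05. The calls of Surf6, rio1 and CG32409 held without any 1 library, while that of Ns2 held without replicate 1 of male air and was lost without any other 1 of the 8 male libraries (limma adjusted p 0.0394 to 0.102), and with libraries scaled by TMM, to the same upper quartile or to the same total. For 1 of them, l(1)G0020, the sexes differed (female minus male -0.56 ± 0.13, limma adjusted p = 0.0356), with -0.40 ± 0.10 in females and 0.17 ± 0.09 in males, against 0.174% of all genes called in that direction. That call was lost without any 1 of 11 of the 16 libraries, held without female air 1, female smoke 2, male air 2, male smoke 1 or male smoke 3 (limma adjusted p 0.0237 to 0.0869 over the libraries left out), and was lost in edgeR and with libraries scaled to the same total. Salivary gland and imaginal disc markers, from tissues that could lie with the trachea, also fell in females, 7 of 8 tested salivary and 5 of 10 disc markers. Salivary markers summed to 61.8 to 325 CPM in female air and to 3.49 to 12.4 in female smoke, and disc markers to 595 to 1110 and 487 to 790. Their part in the biogenesis result was not tested.

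RNA polymerase I makes the large ribosomal RNAs. Of 10 genes for it and its factors 2 fell in females, RpI12 by 0.58 ± 0.14 and Polr1E by 0.46 ± 0.12 (limma adjusted p = 0.0258 and 0.0366), and 0 in males, against 7.09% and 4.64% lower among all genes, with list medians of -0.15 and 0.08. Leaving out 1 female library gave limma adjusted p-values of 0.0220 to 0.0650 for RpI12, whose call held only without air 2, air 4 or smoke 2. For Polr1E they were 0.0239 to 0.0954, and the call held only without air 1 or smoke 2 and was lost with no filter. Tif-IA, which starts that transcription, had -0.13 ± 0.22 and 0.09 ± 0.22. Of 5 RNA polymerase III genes 0 were called in either sex by limma, and 1 in each had an unadjusted p under 0.05. Of 6 factors that act at core promoters, where M1BP is known to bind ribosomal protein genes, 2 fell in females, M1BP by 0.25 ± 0.07 and BEAF-32 by 0.35 ± 0.09 (limma adjusted p = 0.037 and 0.0358), and 0 in males, against the same shares. The call of M1BP was lost without any 1 of the 8 female libraries (limma adjusted p 0.0553 to 0.10), and that of BEAF-32 held only without air 3 or smoke 1 (0.0324 to 0.0911), and both were lost with no filter. The mitochondrial ribosomal protein genes, whose products serve the ribosome of the mitochondrion, had a median log2 change of -0.28 in females, with 17 of 71 lower and 1 higher, and of -0.13 in males, with 3 lower and 0 higher. The male count is near the 4.64% lower of all genes, and in females 7.09% of all genes were lower.

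Few translation factor genes were called. Of 29 initiation factor genes 0 were called in females and 2 rose in males, eIF3a by 0.26 ± 0.07 and eIF2Bepsilon by 0.30 ± 0.07 (limma adjusted p = 0.0385 and 0.0243), with list medians of 0.04 and 0.11. The male count is near the 8.89% higher of all genes. Leaving out 1 male library gave limma adjusted p-values of 0.0473 to 0.107 for eIF3a, whose call held only without air 1, and of 0.0272 to 0.0741 for eIF2Bepsilon, whose call held only without air 4, smoke 2 or smoke 3. Both were lost with libraries scaled to the same total, and eIF3a also in edgeR, with the same upper quartile and with no filter. Of 8 elongation and release factor genes 0 were called in either sex by limma, and 1 in each had an unadjusted p under 0.05. The elongation factor eEF2 had 115888 ± 3551 normalised reads in female air and 132518 ± 5652 in female smoke, a log2 change of 0.19 ± 0.10, and 0.13 ± 0.11 in males.

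Some growth control and ribosome stress genes rose, among them Thor and Xrp1 in both sexes. Thor went from 2757 ± 697 to 14413 ± 2991 normalised reads in females (log2 change 2.40 ± 0.21, limma adjusted p = 0.000466) and from 2855 ± 1261 to 15656 ± 4183 in males (2.52 ± 0.35, limma adjusted p = 0.00393). Of 16 growth control genes 5 rose in females and 3 in males, with list medians of 0.31 and 0.20, against 10.9% and 8.89% higher among all genes. They included rictor, a part of the second Tor complex, with 0.44 ± 0.10 and 0.60 ± 0.07, Larp, which binds messages of ribosomal proteins in other species, with 0.38 ± 0.11 and 0.50 ± 0.10, and in females REPTOR, a factor held back by Tor, with 0.78 ± 0.15. In males REPTOR had 0.64 ± 0.20 and was not called (limma adjusted p = 0.0714), while DESeq2 and limma with the set as a term called it. The female call of Larp held only without replicate 2 of female air and was lost without any other 1 female library (limma adjusted p 0.0232 to 0.125), in edgeR, with no filter and with libraries scaled by TMM, to the same upper quartile or to the same total. Its male call was lost without replicate 1 of male smoke (0.0505) and with the same total. The female call of rictor was lost without replicate 3 or 4 of female smoke (up to 0.0536) and with the same total, while those of Thor in both sexes and of REPTOR in females held without any 1 library. Myc had 0.45 ± 0.23 and 0.59 ± 0.23 and was not called.

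Xrp1, the transcription factor induced in Minute flies, had 17352 ± 1337 normalised reads in air and 39453 ± 4967 in smoke in females, and 17524 ± 1585 and 36584 ± 4073 in males. It rose by 1.18 ± 0.11 in females and by 1.06 ± 0.11 in males (limma adjusted p = 0.000658 and 0.00126). Of 9 ribosome stress genes 3 rose in each sex, Xrp1, the eIF2alpha kinase PEK (0.59 ± 0.07 and 0.68 ± 0.05) and Zfp598, which marks collided ribosomes (0.33 ± 0.09 and 0.35 ± 0.10), against 10.9% and 8.89% higher among all genes. The calls of Xrp1 and PEK held without any 1 library. That of Zfp598 held in females only without air 2 or smoke 2 (limma adjusted p 0.0173 to 0.106) and in males only without smoke 2 (0.0282 to 0.110). It was lost in both sexes with no filter and with the same total, in females with the same upper quartile and in males in edgeR.

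**Figure D5:**
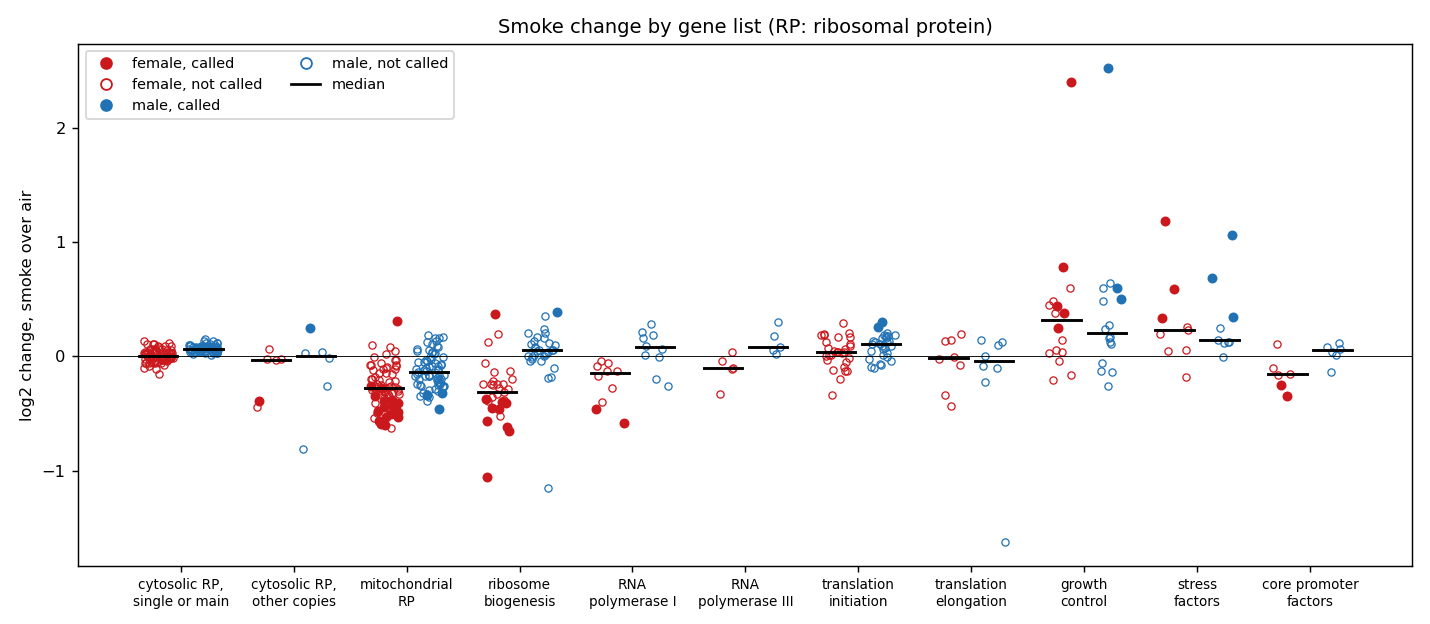
Log2 change of smoke over air for each tested gene of the ribosomal protein groups and of the lists on ribosome making, translation and growth, in females (red) and males (blue); filled points were called at an adjusted p under 0.05 and the bars are list medians. The core genes lie in a narrow band, the biogenesis median is -0.32 in females and 0.05 in males, and Thor stands highest at 2.40 and 2.52.

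Tracheal identity of the samples was checked by 12 markers, all of which had reads, at 7316 to 15496 CPM in sum. The sums were higher in smoke, with medians of 8619 and 10475 CPM in female air and smoke and 9281 and 12176 in male air and smoke. Markers of other tissues varied: replicate 3 of male air held 7668 CPM of salivary and 34527 of fat body markers, against at most 35.9 and 5326 in the other male libraries. Without that library the core median in males was 0.08, close to its value with it. Muscle markers had medians of 7935 and 1678 CPM in female air and smoke and 3907 and 490 in male air and smoke, with 5 of 13 called lower in males. Among all genes tested in males 4.64% were called lower. Hemocyte markers summed to 806 to 1511 CPM in male air and 328 to 710 in male smoke, a median log2 change of -0.88 with 1 of 8 called lower and 6 with an unadjusted p under 0.05. In females the hemocyte median was 0.22 with 0 called by limma and 1 with an unadjusted p under 0.05. For the sex difference 1 of 8 was called, against 2.17% of all genes. Fat body markers had a median log2 change of -3.0 in males, where 0 of 7 tested were called by limma and 7 had an unadjusted p under 0.05. The part of these tissues in the values of the ribosomal protein genes was not tested.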

How the data were processed

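RNA of isolated trachea was sequenced as single reads, 4 libraries in each of 4 groups taken from the sample titles. Per the submitters' processing notes STAR 2.6.0c and DESeq2 1.22.2 were used; the only genome build they name is a human one, so no coordinates are given. The sources used here do not give the counting tool, its annotation or its use of strand. The authors deposited 1 table per sex of normalised signal, which, judged from the values, are gene counts divided by a size factor: 100% of values were within 0.01 of a whole number of reads, so reads were recovered. The authors' deposited tables of log2 fold changes and p-values are quoted only where named, and the test score beside them in the authors' table was not used.

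Smoke was compared with air per sex by limma 3.58.1 (R 4.3.3, trend, two-sided) on log2(value + 1), for genes that reached 10 in 4 or more of 8 libraries, with Benjamini-Hochberg adjustment over all genes tested and a threshold of 0.05. This scale understates changes of low genes. The sexes' responses were compared in 1 model of 16 libraries. Exon lengths, chromosome arms and names came from the Ensembl BDGP6.54 annotation, in which 87 of 88 members were found. No library was a copy of another in its group: chi-square over degrees of freedom was 25.6 to 344. Fits were tested on simulated data. Alternatives were edgeR 4.0.16 and DESeq2 1.42.0 on recovered reads, pseudocounts, filters, scalings, a replicate block, a term for replicates 1 and 2 against 3 and 4, array weights and leaving out each library. Members and lists were chosen with earlier results of these data known. Named genes were, per sex, called members or else the 3 with the smallest p, all duplicated copies, the 2 smallest p for the sex difference, the 3 highest and 3 lowest single-copy genes, up to 3 called genes per list and a fixed set; others with values were named after these were seen.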

Additional observations from a re-analysis of the deposited data

Results flagged for a closer look

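Of 202 group values tested for a library far from the other 3 of its group (Dixon's test at 95%), 11 stood out, and chance gives about 1 in 20. RpS15Ab was highest in replicate 3 of male air at 674 normalised reads, against 610 to 620, and RpS9 in replicate 2 of female air at 15231, against 13898 to 14042. RpL22-like was highest in replicate 2 of female air at 59.8, against 0 to 4.64, and in replicate 3 of male air at 8.90, against 1.65 to 2.34. RpS5b was highest in replicate 2 of female air at 73.6 and lowest in replicate 1 of female smoke at 12.6, against 27.8 to 29.1. The core genes' share of reads was highest in replicate 4 of female smoke at 11.1%, against 10.01 to 10.14%.

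Outside the ribosomal protein genes, CG32409 was lowest in replicate 1 of female air at 885 normalised reads and in replicate 1 of female smoke at 608. M1BP was lowest in replicate 4 of female smoke at 560, and eEF2 in replicate 2 of male smoke at 122738, against 134025 to 134965. The smoke response of l(1)G0020 differed between the sexes, with a female minus male log2 change of -0.56 (limma, 1 model of 16 libraries, adjusted p = 0.0356), a call lost without any 1 of 11 of the libraries.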

How the results depend on the processing

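The number of ribosomal protein genes called lower in females, 1 in the test reported, was 2 with libraries scaled to the same upper quartile, the same total or the same total over other genes and with the set term (RpS15Ab and RpLP0-like), 3 in DESeq2, 1 in edgeR, 0 within replicates 1 and 2 alone and 1, RpLP0-like but not RpS15Ab, within replicates 3 and 4 alone; leaving out 1 library gave 1 to 2, the 2 without replicate 2 of female smoke. RpS15Ab in females had adjusted p-values of 2.33e-06 to 0.172 over the other settings, the highest within replicates 1 and 2. The number called higher in males, 1 in the test reported, was 0 with no filter, the same upper quartile, the same total (also over other genes), edgeR and either replicate set alone, and 2 in DESeq2; leaving out 1 library gave 0 to 1, the 1 without replicate 2 of male smoke. The number called lower in males, 0 in the test reported, was 1, RpS15Ab, with the same total (also over other genes), the set term, array weights and DESeq2. The male smoke minus air share of reads, -0.02 percentage points, was -0.30 without replicate 4 of male smoke, and -0.30 to 0.13 over the libraries left out. The cause of these shifts was not tested.

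Replicate numbers were not taken to pair the libraries, since no label says what a number marks. The column names of replicates 3 and 4 do end in numbers that lie close together within each replicate number over all 4 groups. In each sex 1 of 4 same-numbered pairs of smoke and air libraries had a correlation of deviations under 0.1 (-0.10 to 0.42 over all genes in females, 0.04 to 0.46 in males). In each sex 3 of 4 air and 3 of 4 smoke libraries correlated best with their own number, a hint from the data. Over the core genes alone, same-numbered pairs had correlations of 0.949 to 0.983. Other pairs within replicates 1 and 2 or within 3 and 4 had 0.921 to 0.979, and pairs across these sets -0.969 to -0.928. With the replicate block 2 members were called lower in females, 3 higher (RpL24-like, RpL39, RpS9) and 1 lower in males, and 1 lower for the sex difference (RpLP0-like), and calls over all genes went from 1599 to 2504 in females, 1178 to 2816 in males and 187 to 669 for the difference.

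Uncalled values near 0 changed sign. In females RpS9 was -0.020 with the same upper quartile, -0.090 with the same total and -0.10 with the same total over other genes, and RpL24-like was -0.047 and -0.059 with the last 2. In males the same total gave RpL41 -0.032, Polr1E -0.00545 and M1BP -0.065, and the total over other genes -0.032, -0.00585 and -0.065. M1BP was -0.011 in edgeR, -0.00509 in DESeq2 and -0.014 within replicates 3 and 4, where RpLP0-like was 0.0098, and rio1 was 0.057 within replicates 1 and 2. Leaving out 1 male library gave RpLP0-like -0.14 to 0.092, rio1 -0.11 to 0.046, Polr1E -0.058 to 0.15 and M1BP -0.019 to 0.047. Fits of 1 replicate set hold 2 libraries per group and were chosen after seeing the data, and 25 of 26 calls of named genes, all but Thor in females, were lost in 1 or both sets. Low depth limits the copies with few reads, such as RpS28a, RpL10Aa and RpL37b.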
